A study of Mus musculus with 16 samples.

Results

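Neural progenitors are the dividing cells of the early neural epithelium, and 10 genes that mark them are described here: Sox1, Sox2, Sox3, Sox21, Pax6, Nes, Fabp7, Msi1, Vim and Ckb. They were taken by gene symbol, and all 10 were found, each with 1 row, among the 15876 genes of the table. RNA was sequenced from 16 dissected regions of the embryonic head and face of CD1 mice, an outbred strain, with 1 library a region and stage. The E10.5 neural epithelium was represented by the lateral prominence neural epithelium and by the libraries labelled central and dorsal control, and the E8.5 neural epithelium by the caudal brain, the floor plate and the non-floor plate neural epithelium. Surface ectoderm was represented by the E10.5 olfactory pit and the E9.5 epidermal ectoderm. The other 8 libraries, called mesenchymal here, were the E8.5 mesoderm, the E9.5 cranial mesenchyme, the E9.5 and E10.5 mandibular and maxillary arches, and the lateral and medial nasal prominences of E10.5. The labels do not call the arches and prominences mesenchyme, and a dissected region can hold its surface ectoderm too. The labels name no treatment or mutation, and do not say how many embryos went into a library. Because a class holds different regions, each p-value below measures a difference against the spread between regions, not between embryos.

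SOX2, SOX1 and SOX3 form the SOXB1 group of transcription factors, which keep neural epithelial cells in the progenitor state; SOX21 is a SOXB2 protein that, in the chick, counteracts them. PAX6 is a paired-domain and homeodomain factor that patterns the forebrain and hindbrain and is needed for the eye and the nasal placode. Nestin (Nes) and vimentin (Vim) are intermediate filament proteins, FABP7 is the brain lipid-binding protein of radial glia, Musashi-1 (Msi1) is an RNA-binding regulator of translation, and Ckb encodes the brain type of creatine kinase. Radial glia are the elongated progenitors into which neural epithelial cells mature.

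The deposited value of a gene is a ratio, its expression divided by its own median over the 16 libraries. A level, as used below, is that ratio divided by the lowest ratio of the gene over the 16 libraries, so a level of 1 is the lowest value and levels compare libraries, never genes. For Sox1, Sox2, Sox3, Sox21, Pax6, Fabp7 and Ckb the lowest value was shared exactly by 4 to 13 libraries and was read as a floor, so that folds against it are lower bounds. For Nes, Vim and Msi1 it belonged to 1 library, the E8.5 floor plate, the E8.5 non-floor plate neural epithelium and the E10.5 mandibular arch in that order.

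Some labels did not match the values or the file headers. In the library labelled E10.5 medial nasal prominence the 10 mesenchyme markers (Twist1, Prrx1, collagens and others) summed to a level of 10.4, against 102.3 to 162.2 in the other 7 mesenchymal libraries, with 8 of them at their lowest value, while 16 other neural progenitor genes summed to 221.5, the highest of all libraries. The header inside the file of the library labelled central neural epithelium carries the abbreviation of the dorsal control, and the header inside the other file that of the central neural epithelium; both belong to the same class here, and which is which cannot be told apart. The mesenchyme and surface epithelium lists fitted the other classes. The mesenchyme list summed to 10.2 to 13.3 in E10.5 neural libraries and 10.6 to 39.9 in E8.5 neural libraries, the highest being the floor plate. It summed to 11.8 in the olfactory pit and 36.9 in the epidermal ectoderm. The surface epithelium list summed to 152.9 in the olfactory pit and 163.4 in the epidermal ectoderm, against 8.0 to 29.1 in the other 14 libraries. The 16 other neural progenitor genes summed to 113.6 to 187.3 in E10.5 neural libraries, 116.1 in the floor plate and 125.2 in the non-floor plate library. They did not set the caudal brain (57.6) apart from the E9.5 maxillary arch (58.7), the epidermal ectoderm (62.0) or the olfactory pit (115.4).

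**Figure D1:**
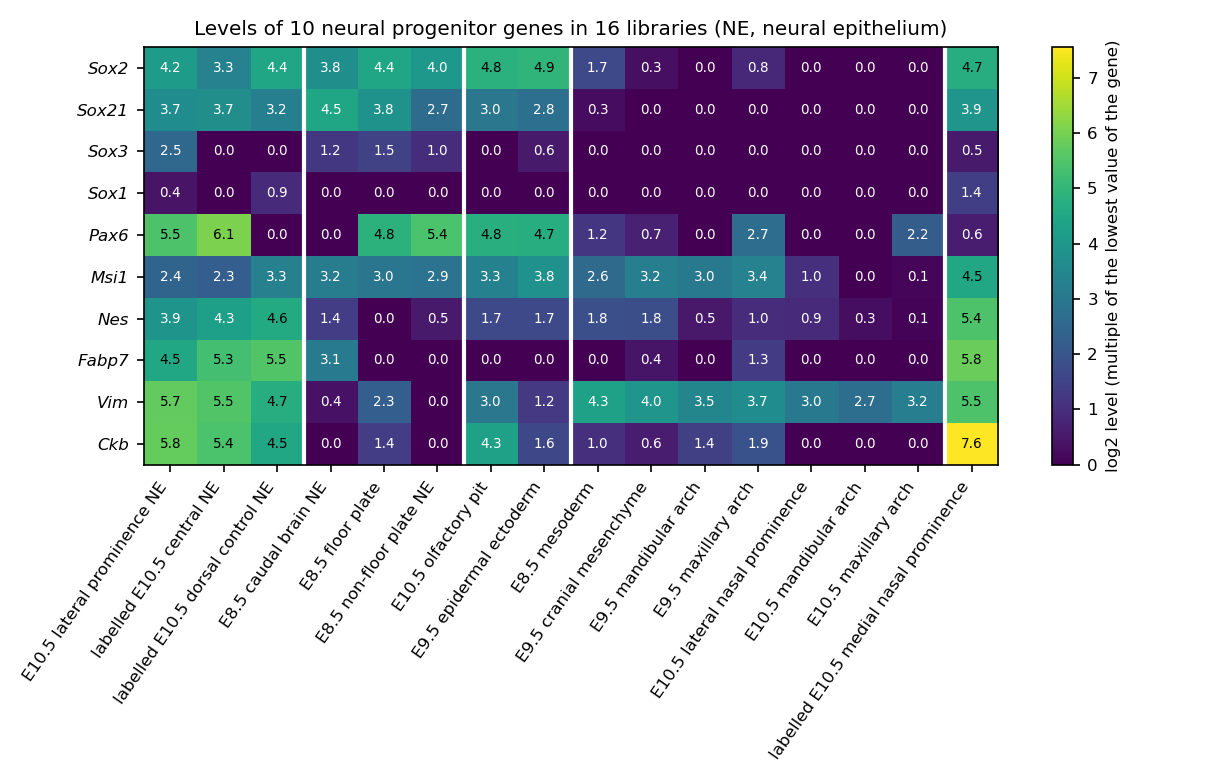
Log2 level of each of the 10 genes (rows) in each of the 16 libraries (columns), with E10.5 neural epithelium, E8.5 neural epithelium, ectoderm, mesenchymal libraries and the library labelled medial nasal prominence from left to right; 0 is the lowest value of the gene. Sox2 and Sox21 are high in both neural stages and in ectoderm, while Nes, Fabp7, Vim and Ckb are bright mainly in the E10.5 neural libraries and at the far right.

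By 2 rules, 4 of the 10 genes were on at E8.5 and 4 others were higher by E10.5. By a rule without a test (a level of at least 5 in at least 2 of the 3 E8.5 neural libraries), Sox2, Sox21, Pax6 and Msi1 were on at E8.5, 4 of 10, where 9.66% of all genes met that rule. By a second rule (all 3 E10.5 neural values above all 3 E8.5 neural values, with means at least 2-fold apart), Nes, Fabp7, Vim and Ckb were higher at E10.5, 4 of 10, where 2.67% of all genes met it and 13.1% met its mirror image; the separation alone was met by 6.18%. Sox1 and Sox3 met neither rule, and none of the 10 met the mirror image. The first rule depends on the library that holds the lowest value of a gene. For Nes and Vim it was itself an E8.5 neural library, so a level under 5 at E8.5 does not mean absence. For Msi1 it was the E10.5 mandibular arch, so being on means standing above that arch. Msi1 left the first group with a level of at least 10 or with libraries scaled to the median gene, and Pax6 left it without the floor plate or without the non-floor plate library; Pax6 joined the second group without the library labelled dorsal control.

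The 250 bases before the transcription start of the 4 genes higher at E10.5, and of Sox2 and Sox21, which moved together at a steady level, are given for comparison. They are RefSeq sequences of the GRCm38.p6 build, which is not the mm9 build of the deposited files, read 5′ to 3′ on the strand of the gene: Nes at chr3:87970843-87971092 (+ strand), Fabp7 at chr10:57784673-57784922 (+ strand), Vim at chr2:13574061-13574310 (+ strand), Ckb at chr12:111672339-111672588 (- strand), Sox2 at chr3:34649745-34649994 (+ strand) and Sox21 at chr14:118237031-118237280 (- strand). Of the 10 genes 8 had an entry. Capitals mark exact matches, on either strand, to the SOX cores ACAATG and ACAAAG, to the octamer ATGCAAAT, to the RBPJ core TGGGAA of Notch signalling, to GGGCGG, known as the GC box, to a pentamer named CCAAT after its letters, and to TATAAA, known as the TATA box; no matches overlapped in the printed sequences.
Nes: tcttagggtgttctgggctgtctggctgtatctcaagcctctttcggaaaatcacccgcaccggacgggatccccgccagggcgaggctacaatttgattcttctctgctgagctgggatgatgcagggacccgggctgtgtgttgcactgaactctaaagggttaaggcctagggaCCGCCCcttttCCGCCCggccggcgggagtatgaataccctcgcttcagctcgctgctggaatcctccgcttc
Fabp7: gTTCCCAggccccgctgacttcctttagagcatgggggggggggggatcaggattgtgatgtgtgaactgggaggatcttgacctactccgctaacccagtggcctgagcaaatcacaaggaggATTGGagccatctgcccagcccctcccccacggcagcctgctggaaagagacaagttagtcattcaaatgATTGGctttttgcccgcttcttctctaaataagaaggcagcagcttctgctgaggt
Vim: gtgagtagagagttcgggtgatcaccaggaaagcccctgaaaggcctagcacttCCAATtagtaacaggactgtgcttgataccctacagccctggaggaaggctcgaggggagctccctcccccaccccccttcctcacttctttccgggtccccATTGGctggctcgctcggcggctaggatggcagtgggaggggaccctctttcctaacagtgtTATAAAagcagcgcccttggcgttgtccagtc
Ckb: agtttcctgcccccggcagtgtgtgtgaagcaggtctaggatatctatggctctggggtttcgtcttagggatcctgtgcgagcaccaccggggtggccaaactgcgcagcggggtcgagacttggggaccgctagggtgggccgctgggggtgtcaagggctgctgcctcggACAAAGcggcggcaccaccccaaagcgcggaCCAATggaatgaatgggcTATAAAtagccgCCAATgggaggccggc
Sox2: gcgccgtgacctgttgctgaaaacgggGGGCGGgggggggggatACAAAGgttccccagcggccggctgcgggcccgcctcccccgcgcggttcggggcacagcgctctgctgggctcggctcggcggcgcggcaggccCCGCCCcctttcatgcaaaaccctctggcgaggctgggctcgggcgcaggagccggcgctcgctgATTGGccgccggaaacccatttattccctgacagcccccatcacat
Sox21: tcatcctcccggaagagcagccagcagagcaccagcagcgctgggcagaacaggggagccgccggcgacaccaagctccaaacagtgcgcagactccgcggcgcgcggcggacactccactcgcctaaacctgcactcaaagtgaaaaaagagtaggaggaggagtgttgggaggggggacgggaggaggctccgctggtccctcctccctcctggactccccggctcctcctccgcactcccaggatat

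The promoters of the genes that were higher at E10.5 did not share a single motif. Vim and Ckb each held a TATA box, 32 and 28 bases before the start counted to its first base, a motif found in 12.4% of 32851 mouse promoter windows of this length. Fabp7, Vim and Ckb each held 2 CCAAT matches (2 or more in 10.1% of windows), and Nes held 2 GC boxes (2 or more in 16.7%). An RBPJ core lay in Fabp7 (21.6% of windows), and the SOX core ACAAAG in Ckb and in Sox2 (16.5%). Sox2 also held 2 GC boxes and 1 CCAAT, and Sox21 held none of the 7 motifs. A match is a description of these letters, not of a bound site.

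Sox2 was at nearly the same level in both neural stages. Its level was 17.8 in the E10.5 lateral prominence neural epithelium, 10.2 in the library labelled central and 21.6 in the library labelled dorsal control, against 13.6, 21.8 and 16.4 in the E8.5 caudal brain, floor plate and non-floor plate libraries. The stages overlapped throughout, and the log2 difference was -0.10 (SE 0.37, 95% interval -0.94 to 0.74), which limma with Benjamini-Hochberg adjustment over 10466 genes did not call (adjusted p = 0.868).

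Sox21 behaved in the same way, with levels of 12.7, 13.2 and 9.5 in the E10.5 lateral prominence, labelled central and labelled dorsal control libraries, against 22.1, 14.4 and 6.36 in the E8.5 caudal brain, floor plate and non-floor plate libraries. The log2 difference was -0.11 (SE 0.50, interval -1.27 to 1.04, limma adjusted p = 0.892). Within E8.5 its highest value was in the caudal brain, 2.87-fold above the non-floor plate library relative to the median gene. Over the 16 libraries Sox2 and Sox21 had a Pearson correlation of log2 ratios of 0.922, and of 0.915 without the library labelled medial nasal prominence, as a description over libraries that differ in tissue and stage.

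Pax6 depended on the region more than on the stage. Its level was 43.8 in the E10.5 lateral prominence neural epithelium and 66.6 in the library labelled central, but 1, the lowest value, in the library labelled dorsal control; at E8.5 it was 28.6 in the floor plate and 43.1 in the non-floor plate library, but 1 in the caudal brain. The SD of the log2 level was 3.34 between the E10.5 neural libraries and 2.98 between the E8.5 neural libraries (n = 3 each), wider than for any other of the 10 genes. The log2 difference between stages was 0.41 (SE 2.0, interval -4.17 to 5.0, limma adjusted p = 0.9). Relative to the median gene, Pax6 was at least 75.8-fold higher in the library labelled central and at least 46.5-fold higher in the lateral prominence neural epithelium than in the library labelled dorsal control. It was at least 52.1-fold lower in the E8.5 caudal brain than in the non-floor plate library. Each of these sets 1 library against another, with no replicate.

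Msi1 was present at both stages, with levels of 5.43, 4.8 and 9.70 in the E10.5 lateral prominence, labelled central and labelled dorsal control libraries, against 9.05, 7.82 and 7.37 in the E8.5 caudal brain, floor plate and non-floor plate libraries. Its log2 difference of -0.35 (SE 0.31, interval -1.06 to 0.37) was not called by limma (adjusted p = 0.452).

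Of the other SOXB1 genes, Sox3 was low but above its floor in all 3 E8.5 neural libraries. Its level was 5.81 in the E10.5 lateral prominence neural epithelium and 1 in the libraries labelled central and dorsal control, against 2.31, 2.83 and 1.99 in the E8.5 caudal brain, floor plate and non-floor plate libraries. Among the 3 E10.5 neural libraries it was thus above its floor in the lateral prominence alone, at least 6.17-fold over the library labelled dorsal control relative to the median gene. Sox1 exceeded its floor in 3 of 16 libraries, at 1.32 in the E10.5 lateral prominence neural epithelium, 1.89 in the library labelled dorsal control and 2.64 in the one labelled medial nasal prominence. It did not pass the filter of 3 libraries above the lowest value within this comparison, so 9 of the 10 genes were tested.

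Both intermediate filament genes were higher in E10.5 than in E8.5 neural epithelium. Nes, the classical neural progenitor filament, reached 14.9, 19.2 and 24.4 in the E10.5 lateral prominence, labelled central and labelled dorsal control libraries, against 2.61, 1 and 1.45 in the E8.5 caudal brain, floor plate and non-floor plate libraries. The stages did not overlap, the lowest E10.5 value lying 5.71-fold above the highest E8.5 value. The log2 difference was 3.62 (SE 0.46, 12.3-fold), called by limma at an adjusted p of 0.00241.

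Vim was at 53.8, 45.0 and 26.1 in the same 3 E10.5 neural libraries, against 1.30, 4.77 and 1 in the E8.5 caudal brain, floor plate and non-floor plate libraries, again without overlap. Its log2 difference was 4.44 (SE 0.58, limma adjusted p = 0.00253). The floor plate, the highest of the E8.5 neural libraries for Vim, was also the highest of them for the mesenchyme list (39.9, against 10.6 and 11.5) and for the surface epithelium list (29.1, against 8.2 and 11.2); their part in its Vim value was not tested.

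Ckb, the brain creatine kinase, showed the widest separation. It was at 54.5, 42.7 and 22.9 in the E10.5 lateral prominence, labelled central and labelled dorsal control libraries, against 1, 2.57 and 1 in the E8.5 caudal brain, floor plate and non-floor plate libraries, with the lowest E10.5 value 8.92-fold above the highest E8.5 value. The log2 difference was 4.78 (SE 0.69, limma adjusted p = 0.00357).

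Fabp7, the radial glial lipid-binding protein, was at 22.6, 39.0 and 45.1 in the E10.5 lateral prominence, labelled central and labelled dorsal control libraries, against 8.47 in the E8.5 caudal brain and 1 in the floor plate and non-floor plate libraries. The values of the stages did not overlap, and the caudal brain was the exception within E8.5. The log2 difference of 4.07 was not called (SE 4.79, limma adjusted p = 0.572), whereas limma without a mean-variance trend gave the same difference an SE of 0.81 and an adjusted p of 0.0132, in a fit that called 3.2% of genes higher and 16.5% lower.

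Thus 3 of 9 tested genes (Nes, Vim and Ckb) rose and none fell, where 2.96% of all tested genes were called higher at E10.5 and 16.9% lower. The median log2 difference was 0.41 over the 9 genes and -0.35 over all genes tested. With libraries scaled to the median gene 7.11% of genes were higher and 9.12% lower, and the same 3 genes were called. They were also called without each neural library in turn, and with the library labelled medial nasal prominence added to the E10.5 group (2.42% of genes higher, 9.24% lower), but in 1 fit over all 16 libraries only Vim was (adjusted p = 0.0101, against 0.0759 for Nes and 0.105 for Ckb). In bulk RNA, more cells of a type and more RNA per cell cannot be told apart.

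**Figure D2:**
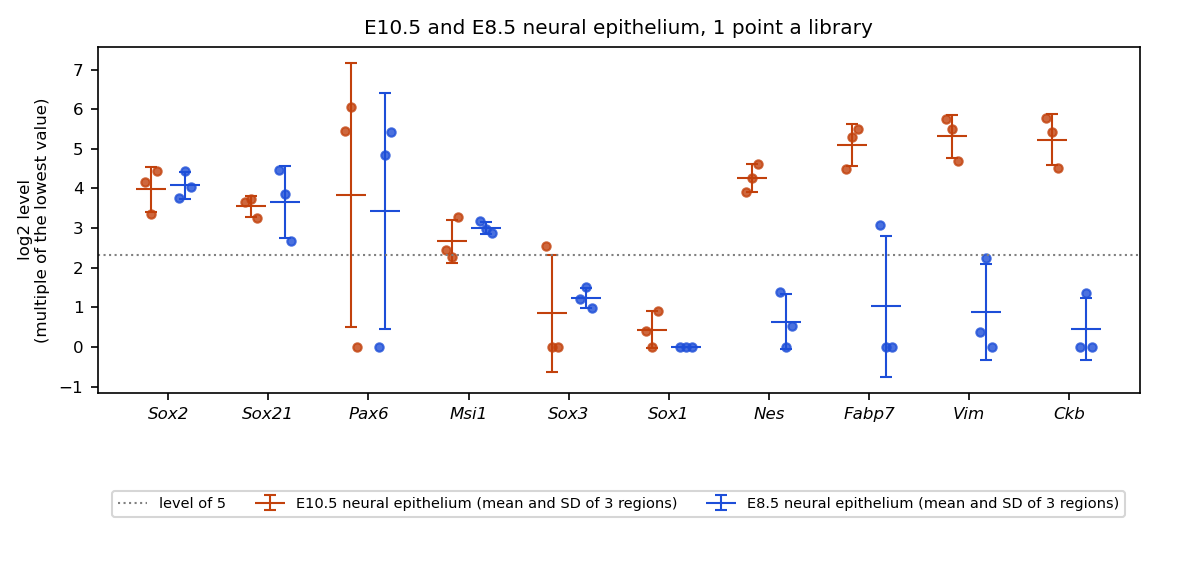
Log2 level (vertical axis) of the 10 genes in E10.5 neural epithelium (orange, left) and E8.5 neural epithelium (blue, right); each point is 1 library, the horizontal marks and bars are the mean and SD of 3 regions, and the dotted line is a level of 5. The stages overlap for Sox2, Sox21, Pax6, Msi1, Sox3 and Sox1 and are separate for Nes, Fabp7, Vim and Ckb.

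Other genes of the neural progenitor programme moved with these in part. Of 16 further progenitor genes 15 were tested and 2 rose, Notch1 (log2 difference 2.41, SE 0.49, limma adjusted p = 0.0122), the receptor of Notch signalling, and Dll1 (1.81, SE 0.55, adjusted p = 0.0472), its ligand; the median of the list was 1.16. Of 14 other SOX genes 7 were tested, and Sox9 (2.76, SE 0.68), a factor of gliogenic progenitors, and Sox6 (2.35, SE 0.48) rose with limma adjusted p of 0.0229 and 0.0122. Of 15 other intermediate filament genes 6 were tested; the neurofilament gene Nefm rose (2.73, SE 0.41, adjusted p = 0.00425) and the lamin gene Lmnb2 fell by 1.5 (SE 0.31, adjusted p = 0.0125).

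Some relatives of Fabp7 went the other way. Among other genes for lipid-binding proteins of this family, Crabp2 fell by 1.5 (SE 0.43) and Fabp5 by 1.42 (SE 0.27) on the log2 scale, with limma adjusted p of 0.0396 and 0.00979. Of 6 other genes of the creatine kinase system 2 were tested and neither was called (median -0.01), and of 7 other PAX genes 2 were tested and neither was called. Of the tissue lists, the placode gene Six4 fell by 1.29 (SE 0.26, limma adjusted p = 0.0115), 1 of 6 tested, and none was called of 2 mesenchyme, 3 surface epithelium, 1 neural crest glia, 1 endothelium and 1 lens and eye genes tested.

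Some neuron markers also rose with stage. Of 10 such genes 6 were tested and 4 rose, the RNA-binding protein gene Elavl4 (2.83, SE 0.58), the microtubule genes Map2 (2.18, SE 0.55) and Dcx (1.56, SE 0.36) and the RNA-binding protein gene Elavl3 (1.46, SE 0.40), with limma adjusted p of 0.0128, 0.0257, 0.0182 and 0.035. Dcx and Elavl3 were at the floor of 1 in all 3 E8.5 neural libraries. They passed the filter through the E10.5 libraries alone, and their SEs hold no E8.5 spread. Their p-values therefore add nothing to the levels. Tubb3 and Stmn2 were tested and not called. Tubb3 was at 2.01 to 5.27 in the E10.5 and 1 to 6.77 in the E8.5 neural libraries. Stmn2 was at 5.19 to 9.9 and 5.71 to 11.3 in the same order. The summed level of the 10 neuron markers was 37.7 to 65.6 in the E10.5 neural libraries and 18.9 to 32.7 in the E8.5 neural libraries. The 5 erythroid markers summed to 62.3 to 104.4 in E10.5 and 5.0 to 5.7 in E8.5 neural libraries, with 0 of 4 tested called. The part of neurons or blood in the rise of Nes, Vim and Ckb was not tested.

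Against the mesenchymal libraries, Sox2 and Sox21 were the members that marked neural epithelium at both stages. Sox2 was at 10.2 to 21.8 in the 6 neural libraries (median 17.1). In the mesenchymal libraries it was at 3.16 in E8.5 mesoderm, 1.25 in E9.5 cranial mesenchyme, 1 and 1.80 in the E9.5 mandibular and maxillary arches, and 1 in the E10.5 lateral nasal prominence and both E10.5 arches, but at 26.1 in the library labelled medial nasal prominence. Sox21 was at 6.36 to 22.1 in the neural libraries (median 13.0), against 1.20 in E8.5 mesoderm, 1 in the 6 other mesenchymal libraries of E9.5 and E10.5 whose markers match their label; the library labelled medial nasal prominence was at 15.4. Without that library all 6 neural values lay above all 7 mesenchymal values for Sox2 and Sox21, 2 of 10 genes, where 1.18% of all genes separated in this way; with it none of the 10 did, where 0.126% of all genes did.

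With all 8 mesenchymal libraries limma called 0 of 10 genes, where 0.424% of 12501 tested genes were called higher in neural epithelium and 0.52% lower, and 1450 genes had an unadjusted p under 0.05. Sox21 had a log2 difference of 3.08 (SE 0.77, adjusted p = 0.0789) and Sox2 of 3.09 (SE 1.95, adjusted p = 0.617). Without the library labelled medial nasal prominence Sox21 was called (3.57, SE 0.73, adjusted p = 0.0115), where 1.86% of genes were higher and 1.2% lower, and Sox2 was not (3.63, SE 2.24, adjusted p = 0.53). Without the mean-variance trend limma called both, with that library (Sox2 adjusted p = 0.0305, Sox21 0.0155; 0.456% of genes higher, 0.56% lower) and without it (1.11e-05 and 2.2e-06; 1.92% higher, 1.26% lower). Among the 7 mesenchymal libraries other than that one, Sox21 was at its floor in 6 and Sox2 in 4. The SD of the log2 level over these 7 was 0.097 for Sox21 and 0.636 for Sox2. For Sox21 the limma p-values without that library thus hold almost no mesenchymal spread. Scaled to the median gene, with that library kept, Sox21 alone was called (3.02, adjusted p = 0.0342), where 0.672% of genes were higher and 1.11% lower. Exact two-sided permutation tests of the log2 ratios, unadjusted over the 10 genes, gave p = 0.00466 for Sox2 and 0.004 for Sox21 with all 14 libraries, and 0.00117 for each without the library labelled medial nasal prominence, the smallest that 6 against 7 libraries allow.

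Other genes set the classes apart in the same fit with all 8 mesenchymal libraries. Of 10 mesenchyme genes 4 were lower in neural epithelium, Prrx1 by a log2 difference of -4.22 (SE 0.74), Twist1 by -3.91 (SE 0.61), Col1a2 by -3.35 (SE 0.72) and Col3a1 by -3.32 (SE 0.55), with limma adjusted p of 0.0145, 0.00831, 0.0399 and 0.012. Also lower were 4 of 5 erythroid genes, led by Hba-x (-5.55, SE 1.18), and 1 of 5 endothelium genes, Cdh5 (-2.30, SE 0.43). Higher were 1 of 15 further progenitor genes, Prom1 (1.40, SE 0.28, limma adjusted p = 0.0345), and 1 of 6 neuron genes, Stmn2 (2.31, SE 0.50, adjusted p = 0.0399). None was called of 11 other SOX, 5 other PAX, 10 other intermediate filament, 4 other fatty acid binding protein, 3 other creatine kinase, 4 surface epithelium, 2 neural crest glia and 2 lens and eye genes tested. Without the library labelled medial nasal prominence 4 of 15 further progenitor genes were higher: Ptprz1 (3.03), a receptor phosphatase, N-cadherin Cdh2 (2.33), Dll1 (2.09) and Prom1 (1.54). So were 3 of 6 neuron genes, Stmn2 (2.75), Map2 (2.31) and Tubb3 (1.63). The library left out had sums of 221.5 and 128.4 for these lists, each above every neural library. Larger neural differences without it were thus partly fixed in advance.

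Sox3 and Pax6 leaned the same way but not in every region. Sox3 was at 1 in all 7 other mesenchymal libraries and at 1.45 in the library labelled medial nasal prominence, and 4 of 6 neural values lay above that (log2 difference 0.97, SE 0.34, limma adjusted p = 0.216; exact permutation p = 0.03 with that library and 0.042 without). Pax6 was at 2.30 in E8.5 mesoderm, 1.61 in E9.5 cranial mesenchyme, 1 and 6.49 in the E9.5 mandibular and maxillary arches, 1 and 4.72 in the E10.5 mandibular and maxillary arches, 1 in the lateral nasal prominence and 1.51 in the one labelled medial nasal prominence. It was above its floor in the maxillary and not in the mandibular arch at both stages. Its neural against mesenchymal difference was 2.70 (SE 0.94, limma adjusted p = 0.222; exact permutation p = 0.04 with all 8 mesenchymal libraries and 0.0559 without the library labelled medial nasal prominence).

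Vim, also the filament of mesenchymal cells, was high in mesenchymal libraries as well as in E10.5 neural epithelium. Its mesenchymal levels were 19.8 in E8.5 mesoderm, 15.5 in E9.5 cranial mesenchyme, 11 and 12.7 in the E9.5 mandibular and maxillary arches, and 8.23, 6.67 and 9.38 in the E10.5 lateral nasal prominence and mandibular and maxillary arches. All 7 lay below the 3 E10.5 neural values and above the 3 E8.5 neural values. Over both stages the neural against mesenchymal log2 difference was -0.64 (SE 0.84, limma adjusted p = 0.878).

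Msi1 also differed by stage outside neural tissue. It was at 6.05 in E8.5 mesoderm, 9.37 in E9.5 cranial mesenchyme, 8.28 and 10.2 in the E9.5 mandibular and maxillary arches, and 2.02, 1 and 1.07 in the E10.5 lateral nasal prominence and mandibular and maxillary arches. The E8.5 and E9.5 mesenchymal values thus overlapped the neural range of 4.8 to 9.70, and the 3 E10.5 mesenchymal values lay below it. The shares of genes at a shared lowest value were 74.3% to 81.5% in these 3 E10.5 libraries and 50.6% to 72.4% in the other 13. In these 3 the library shift was -0.38 to -0.82, the lowest of the 16. This shift is the median log2 ratio, centred on the mean of each gene, over the 7082 genes with no shared lowest value. The part of either in the Msi1 levels of these 3 libraries was not tested.

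Nes, Fabp7 and Ckb stayed low in the 7 mesenchymal libraries, at 1.05 to 3.58, 1 to 2.51 and 1 to 3.70. In an E10.5 fit of the 3 neural against the 3 mesenchymal libraries whose markers match their label, limma called 6 of 8 tested genes higher: Ckb (log2 difference 5.23, SE 0.46), Sox2 (3.98, SE 0.43), Nes (3.83, SE 0.36), Sox21 (3.55, SE 0.31), Vim (2.31, SE 0.37) and Msi1 (2.29, SE 0.47), with adjusted p of 0.000751, 0.00158, 0.000955, 0.000716, 0.00796 and 0.0187. Fabp7 and Pax6 were tested and not called. Fabp7 was nevertheless at 22.6, 39.0 and 45.1 in the 3 neural libraries and at 1 in the 3 mesenchymal libraries. In that fit, added after the data were seen, 9.57% of all genes were called higher and 1.92% lower. Vim thus stood on opposite sides of zero in this fit and over both stages. Ckb, Sox2 and Sox21 were at the floor of 1 in all 3 mesenchymal libraries of this fit. They passed the filter through the neural libraries alone, and their SEs hold no mesenchymal spread. Their p-values therefore add nothing to the levels. The median log2 difference over all genes of this fit was 0.42, and it was not repeated relative to the median gene.

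The difference between stages was itself tested as an interaction, with E8.5 mesoderm as the lone E8.5 mesenchymal library, assumed to vary like the others. It was not repeated relative to the median gene. The median interaction over all genes was 0.57 in the fit without the library labelled medial nasal prominence. In that fit Ckb was at the floor of 1 in the E10.5 lateral nasal prominence and both E10.5 arches. Without the library labelled medial nasal prominence the neural against mesenchymal difference was larger at E10.5 than at E8.5 by 5.80 on the log2 scale for Ckb (SE 0.75) and by 5.04 for Nes (SE 0.66), each with a limma adjusted p of 0.0321, where 0.149% of 11405 genes had a larger and 0.0263% a smaller difference; for Vim it was larger by 5.75 (SE 0.92, adjusted p = 0.052), which missed the threshold. With that library none of the 10, and 0% of 11707 genes, was called by limma, where 413 genes had an unadjusted p under 0.05. Without that library the interaction was 0.14 for Sox21 (SE 0.71, interval -1.43 to 1.72, limma adjusted p = 0.926) and 1.56 for Sox2 (SE 0.64, interval 0.13 to 2.99, adjusted p = 0.253).

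**Figure D3:**
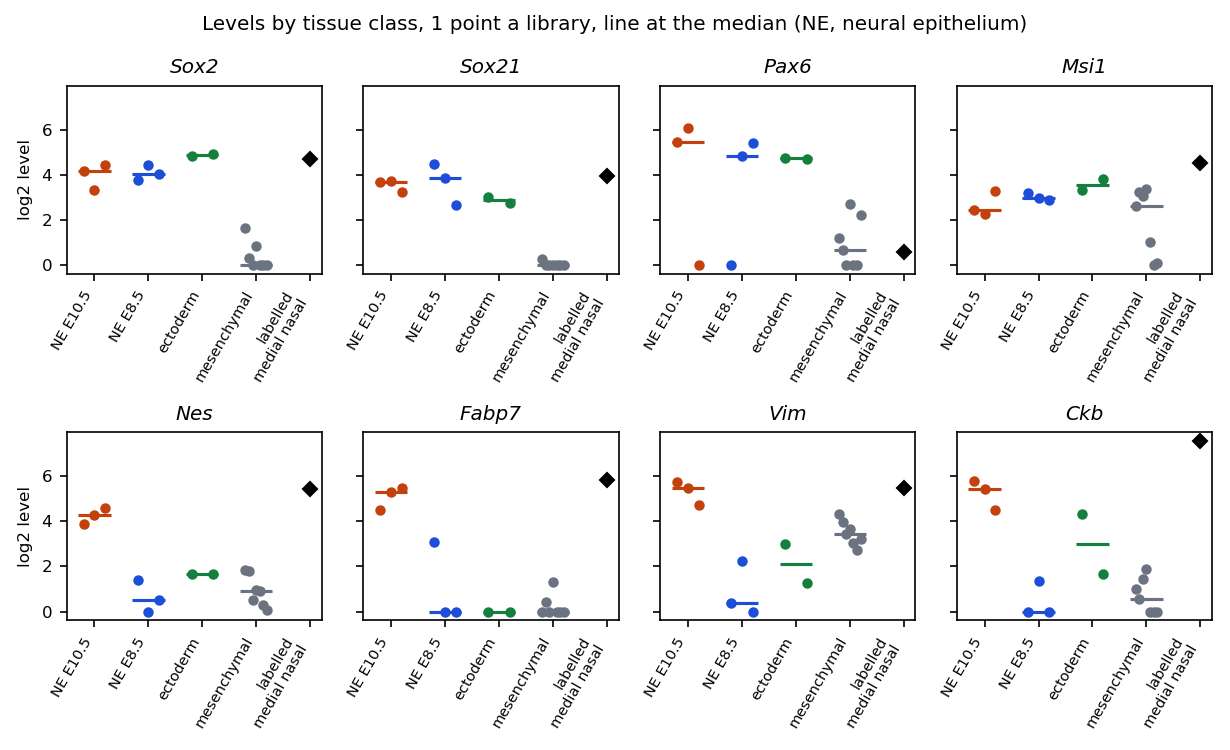
Log2 level (vertical axis) of 8 of the genes by tissue class, from left to right E10.5 and E8.5 neural epithelium, ectoderm (olfactory pit, epidermal ectoderm), 7 mesenchymal libraries, and the library labelled medial nasal prominence (black diamond); each point is 1 library and each line a median. Sox2 and Sox21 are high in ectoderm as in neural tissue, Pax6 is high in ectoderm and in 4 of 6 neural libraries, and the black diamond lies above the mesenchymal libraries in 7 panels, Pax6 being the exception.

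Surface ectoderm used Sox2, Sox21 and Pax6 but not the E10.5 neural genes as a set. Sox2 had its highest levels of all 16 libraries there, 28.2 in the olfactory pit and 30.7 in the epidermal ectoderm. Pax6 was at 27.0 and 25.9 in the olfactory pit and epidermal ectoderm, and Sox21 at 7.99 and 6.83. For these 3 genes, 3 of 10, both ectoderm values lay above all 7 mesenchymal libraries whose markers match their label, where 9.42% of all genes did so. Both Sox21 values lay within the neural range of 6.36 to 22.1, near its low end.

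Limma called Pax6 in ectoderm against all 8 mesenchymal libraries (log2 difference 3.8, SE 0.69, adjusted p = 0.0239), 1 of 8 tested genes, where 0.867% of 11762 genes were called higher and 0.051% lower; without the library labelled medial nasal prominence it was 3.75 (SE 0.73, adjusted p = 0.034), where 1.35% of genes were higher and 0.113% lower. The call held without the trend (adjusted p = 0.03; 0.791% higher, 0.034% lower) and was lost with scaling to the median gene (adjusted p = 0.0608; 0.366% higher, 0.0935% lower), in 1 fit of all 16 libraries (0.309), without the epidermal ectoderm (0.391) and without the olfactory pit (0.445). Sox2 had a difference of 3.94 (SE 1.79, limma adjusted p = 0.692) with all 8 and of 4.48 (SE 1.0, adjusted p = 0.0662) without the library labelled medial nasal prominence. Sox21 had 2.36 (SE 1.52, adjusted p = 0.921) and 2.85 (SE 0.83, adjusted p = 0.173) in the same fits. Leaving out both the trend and that library, Sox2, Sox21 and Pax6 were all called by limma (adjusted p = 0.000924, 0.000406 and 0.0323), where 1.54% of genes were higher and 0.201% lower. Of the 7 mesenchymal libraries in that fit, Sox21 was at its floor in 6, Sox2 in 4 and Pax6 in 3. For Sox21 the p-value thus holds almost no mesenchymal spread.

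Among genes that accompany these in ectoderm, the surface epithelium list had 3 of 4 tested genes called higher than in mesenchymal libraries: Epcam (5.78, SE 0.79), an epithelial adhesion molecule, and the keratins Krt18 (4.40, SE 0.50) and Krt8 (3.97, SE 0.30), with limma adjusted p of 0.00442, 0.00106 and 0.000304. Of 8 olfactory placode genes, 2 were called, Eya2 (4.24, SE 0.79, adjusted p = 0.0292) and Sp8 (3.48, SE 0.30, adjusted p = 0.000304). None of 12 tested further progenitor genes was called (median 0.78, against 0.28 over all genes), nor any of 10 mesenchyme, 5 neuron or 5 erythroid genes. Without the library labelled medial nasal prominence 1 of 10 further progenitor genes was higher, Dll1 (2.25, SE 0.32, limma adjusted p = 0.00776). Of 3 neuron genes tested 2 were higher, Tubb3 (3.76, SE 0.48, limma adjusted p = 0.00425) and Elavl4 (3.71, SE 0.67, adjusted p = 0.0245). Among the mesenchymal libraries of this fit, Dll1 and Tubb3 were above 1 only in E8.5 mesoderm (1.4 and 2.44). The library left out was high for both lists, so larger differences without it were partly fixed in advance. Erbb3, 1 of 2 neural crest glia genes tested, was higher (2.15, SE 0.30), and the endothelial gene Pecam1, 1 of 5, was lower (-2.17, SE 0.34).

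Of the genes that were higher in E10.5 neural epithelium, Fabp7 was at its floor of 1 in both ectoderm libraries. Nes was at 3.19 in the olfactory pit and 3.17 in the epidermal ectoderm, below all 3 E10.5 neural values. Vim was at 8.03 and 2.38, and Ckb at 20.1 and 3.13, in the olfactory pit and the epidermal ectoderm. Ckb in the olfactory pit came close to the lowest E10.5 neural value of 22.9.

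Single libraries were compared by genes with a level of 5 or more in the higher of the pair, called eligible here, and such a gene was counted at 2-fold or more relative to the median gene. The olfactory pit and the epidermal ectoderm differed for 2 of 6 eligible genes. Ckb was 7.06-fold and Vim 3.72-fold higher in the olfactory pit, where 22.8% of 2558 genes were counted higher and 14.2% lower. These libraries also differ in stage. The 10 neuron markers summed to 162.8 in the olfactory pit and 36.4 in the epidermal ectoderm, with 1 and 3 of them at their lowest value, and the 10 mesenchyme markers to 11.8 and 36.9; their part in the Ckb and Vim values was not tested.

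Against the E10.5 lateral nasal prominence, dissected at the same stage, the olfactory pit was higher for Sox2 (at least 18.6-fold), Pax6 (at least 17.8-fold), Ckb (at least 13.3-fold), Sox21 (at least 5.28-fold) and Msi1 (3.23-fold), 5 of 6 eligible genes, where 45.7% of 1914 genes were counted higher and 10.2% lower. The epidermal ectoderm was higher than the E9.5 maxillary arch for Sox2 (16.9-fold), Sox21 (at least 6.75-fold) and Pax6 (3.95-fold), where 16.2% of 2709 genes were counted higher, and lower for Vim (5.41-fold), where 21.3% were lower. Of the 10 genes 5 were eligible. Msi1 was at 14.2 in the epidermal ectoderm and 10.2 in that arch, less than 2-fold apart.

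Regions of the neural epithelium within a stage were compared in the same way. The E8.5 caudal brain was higher than the non-floor plate library for Fabp7 (at least 7-fold) and Sox21 and lower for Pax6, 3 of 5 eligible genes, where 8.18% of 2187 genes were higher and 24.8% lower. Between the floor plate and the non-floor plate library none of 4 eligible genes was 2-fold apart, where 11% of genes were higher and 25.8% lower. In the ratios as deposited Sox21 was 2.27-fold higher in the floor plate. Below a level of 5, Vim (4.77 against 1) and Ckb (2.57 against 1) were 3.88-fold and 2.09-fold higher in the floor plate. At E10.5 the lateral prominence was higher than the library labelled dorsal control for Sox3, Pax6, Ckb (2.52-fold) and Vim (2.19-fold), 4 of 9 eligible genes, where 14.4% of 1178 genes were higher and 39.5% lower. The library labelled central was higher than the library labelled dorsal control for Pax6 and Ckb (2.12-fold), 2 of 8 eligible genes, where 14.7% of 1150 genes were higher and 39.7% lower. In the ratios as deposited Ckb was 1.86-fold higher there, under the 2-fold limit, while Sox2 was 2.12-fold and Msi1 2.02-fold lower, and relative to the median gene these were 1.87-fold and 1.78-fold.

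The library labelled medial nasal prominence held the highest level of all 16 libraries for Ckb (188), Fabp7 (56.4), Nes (43.2), Msi1 (22.7) and Sox1 (2.64). Relative to the E10.5 lateral nasal prominence it was higher for all 7 eligible genes, where 53.4% of 1999 genes were and 18.9% were lower. It was higher for Ckb by at least 120-fold, Fabp7 at least 35.9-fold, Sox2 at least 16.6-fold, Nes 14.5-fold, Sox21 at least 9.80-fold, Msi1 7.15-fold and Vim 3.39-fold. The 3 genes that were not eligible, Pax6, Sox1 and Sox3, were at 1.51, 2.64 and 1.45 there, each against 1 in the lateral nasal prominence. The neuron markers summed to 128.4 there, above every neural library, and the surface epithelium list to 8.0, with all 8 genes at their lowest value.

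**Figure D4:**
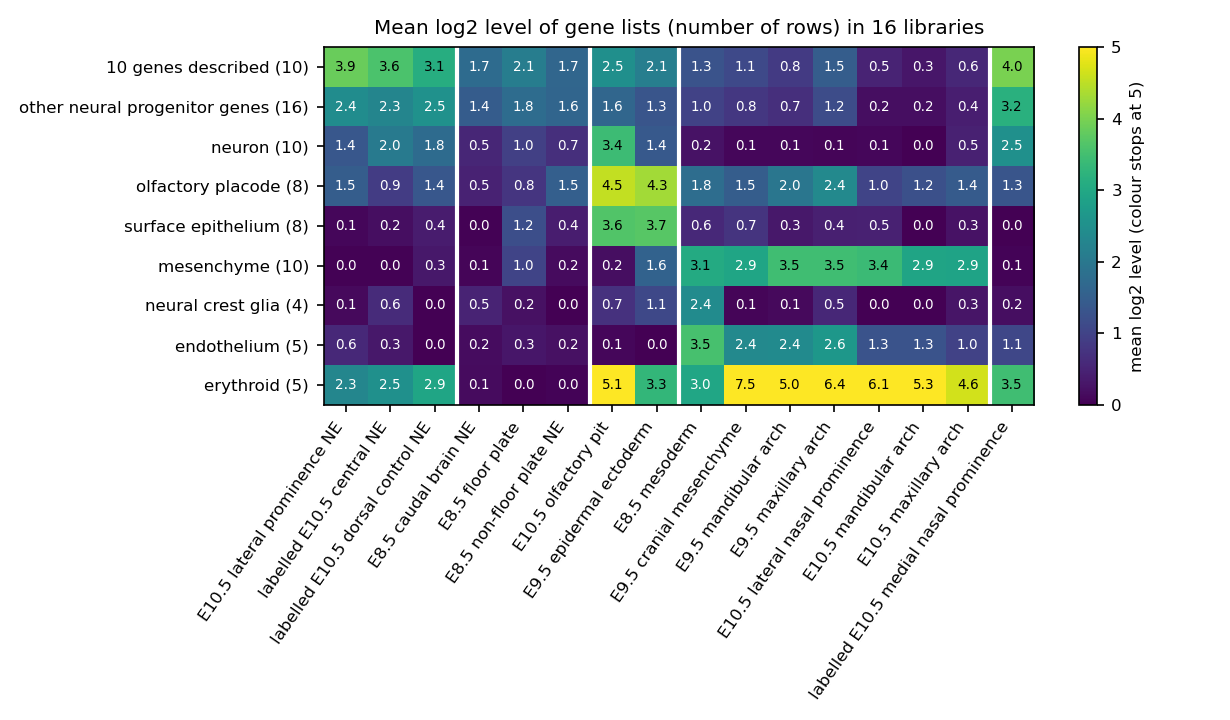
Mean log2 level of the 10 genes and of 8 marker lists (rows, with the number of genes) in the 16 libraries (columns, in the order of the heat map of the 10 genes). The library labelled medial nasal prominence, at the right, has values near 0 for the mesenchyme and surface epithelium lists and high values for the neural lists.

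The genes whose log2 ratios followed each member most closely over the 16 libraries, among 11567 compared, are given as descriptions over libraries that share tissue and stage. Sox2 was followed by Slain1 (Pearson r = 0.98), Plekhh1 (0.97) and Dpysl5 (0.97), and Sox21 by Phyhipl (0.98), Celsr2 (0.96) and Slain1 (0.95), so that Slain1 was shared. Pax6 was followed by Otx1 (0.84), Emx2 (0.81) and Syde2 (0.79). Nes was followed by 9330159F19Rik (0.94), Gpm6b (0.94) and Pld1 (0.93), Fabp7 by Fez1 (0.98), Jam2 (0.96) and AC160757.2 (0.95), and Ckb by C130071C03Rik (0.96), Wdr47 (0.95) and Snap25 (0.95). Msi1 was followed by March6 (0.97), Rnf141 (0.96) and Paxbp1 (0.96), and Vim by Wwtr1 (0.85), Zfp711 (0.84) and Tm6sf1 (0.83). Sox3, above its floor in 6 libraries, was followed by Brcc3 (0.90), Tmem229a (0.86) and 6330549D23Rik (0.85), and Sox1, above its floor in 3, by AC134437.1 (0.96), Cacna1h (0.95) and Lrrc9 (0.95).

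Among the 10 genes themselves, Nes followed Fabp7 (r = 0.91) and Ckb (0.88), Fabp7 followed Ckb (0.79) and Vim followed Ckb (0.71), whereas Sox2 against Vim gave -0.08 and Pax6 against Nes 0.05.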

How the data were processed

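RNA of 16 regions was sequenced with 50-base single-end reads per the labels' protocols; the labels state a depth above 40 M reads, and the files do not give that of each library. Bowtie, TopHat, TopHat2, Cufflinks and mm9 are named in the submitters' processing notes, without versions. The deposited values are ratios: each of 15876 genes has a median of 1 over the 16 libraries, and 8794 genes share a lowest value between libraries (tolerance 1e-06). The unit before this division is unknown.

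Log2 ratios were tested in R 4.3.3 with limma 3.58.1, its mean-variance trend switched on and no pseudocount, for genes above their lowest value in at least 3 libraries of a fit, and called where the adjusted p (Benjamini-Hochberg) was under 0.05 and the fold at least 2. The limma fits were tested on simulated data, with the spread of each gene held at or under that of the median gene. Recovery was counted only for genes above the floor. The simulation thus does not cover floored or widely spread genes. As each gene is divided by its own median, the mean log2 ratio behind the trend is not an abundance, and fits without the trend are given. Single libraries were compared relative to the median gene among 7082 genes with no shared lowest value. Alternatives were another scaling, filter, fit or level, and leaving out each library. Correlated genes were the 3 highest for each member among genes above their lowest value in at least 5 libraries; of other lists, called genes are named, up to 4 a list by fold. The members and lists were chosen with earlier results of these data known. No genome of the build of the files was used. Some genes of the lists are not reported here.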

Additional observations from a re-analysis of the deposited data

Results flagged for a closer look

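Among the 8 mesenchymal libraries, the library labelled medial nasal prominence was flagged for its distance above the other 7. Its levels were 26.1 for Sox2, 15.4 for Sox21, 43.2 for Nes, 56.4 for Fabp7 and 188 for Ckb. For these genes the gap to the next library took up more of the range than Dixon's 95% critical value for 8 samples allows. It also lay above the other 7 for Msi1 (22.7) and Vim (43.8), without such a gap, but not for Pax6. Over 20 groups examined, chance alone gives such a gap in about 1 in 20. That rate assumes values without ties at a floor. Of the other 7 libraries, 6 were at the floor for Sox21, 5 for Fabp7, 4 for Sox2 and 3 for Ckb. For these genes the rate does not hold. Sox1 (2.64) and Sox3 (1.45) also met Dixon's criterion there. For Sox1 and Sox3 the other 7 libraries were all at the floor of 1, so any value above it does, whatever its size.

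The neural against mesenchymal difference was larger at E10.5 than at E8.5 by 5.04 (log2) for Nes and by 5.80 for Ckb in the interaction test without that library (limma adjusted p = 0.0321 for each).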

How the results depend on the processing

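No paired analysis was possible because each region and stage has 1 library and the labels give no replicate numbers. In E10.5 against E8.5 neural epithelium, the counts of genes higher (310) and lower (1767) became 744 and 954 relative to the median gene, 126 and 939 with no filter on low values, and 40 and 73 with all 16 libraries in 1 fit, which called 1 of the 10 genes; adding the library labelled medial nasal prominence to E10.5 gave 1013 lower. Leaving out each library gave 135 to 261 higher and 863 to 2046 lower, with 3 of the 10 genes called each time. In neural epithelium against mesenchymal libraries, 53 higher and 65 lower genes became 84 and 139 relative to the median gene, 21 and 37 with no filter, 17 and 26 with embryonic day as a covariate, and 0 and 0 by limma with E10.5 libraries only (786 at an unadjusted p under 0.05); 1 fit of all 16 gave 97 higher. Without the library labelled medial nasal prominence they were 910 and 183 at E10.5 only, 193 and 287 relative to the median gene, and 236 and 155 without the trend. Of the 10 genes, 1 was called relative to the median gene, with that library and without it, 1 in the fit of all 16, 2 without the trend, with it and without it, and 6 at E10.5 only without it, where Vim was at 2.31, against -0.64 over both stages. Leaving out each library gave 9 to 228 higher, 24 to 147 lower and 0 to 1 of the 10 genes. In ectoderm against mesenchymal libraries, 102 higher and 6 lower genes became 43 and 11 relative to the median gene and 191 and 13 in the fit of all 16, each with 0 of the 10 genes called, and 238 higher with no filter. Without the library labelled medial nasal prominence, 26 were lower relative to the median gene, with 0 of the 10 called, and 176 higher and 23 lower without the trend, with 3 called; leaving out each library gave 16 to 155 higher, 1 to 13 lower and 0 to 1 of the 10. In single-library comparisons, a 3-fold rule left 2 genes for the lateral prominence and 1 for the library labelled central, each against the library labelled dorsal control; floor plate against non-floor plate gave 1 as deposited and 2 with no minimum level. In the interaction between stage and tissue, 0 genes higher and 0 lower by limma (413 at an unadjusted p under 0.05) became 17 and 3 without the library labelled medial nasal prominence, with 2 of the 10 called. The cause of these changes was not tested. The files give no read counts, so the counting error of values near the floor, as for Sox1 and Sox3, is not known.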
